A study of Mus musculus with 18 samples.

Results

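Epithelial T cells of mice heterozygous for St8sia6 (het) were compared with those of wild-type mice (WT). The cells came from the small bowel epithelium and were chosen by their own RNA: at least 1 Cd3e molecule, no Cd79a and no Epcam molecule, and under 20% of molecules from mitochondrial genes. Of 16985 deposited epithelium cells (60272 in the whole series), 8969 met the rule, 3599 of them het, 3060 from St8sia6 knockout mice (KO) and 2310 WT. In the order of captures 1, 2 and 3, the het cells numbered 1110, 1781 and 708 and the WT cells 348, 469 and 1493. Per the labels, each of 3 repeats used 1 het, 1 KO and 2 WT mice, immune cells were enriched by CD45 beads after a density gradient, each genotype received its own hashtag antibody, and the genotypes were then pooled for 5' droplet capture. A barcode ending was given the genotype whose hashtag had the highest median count in it. The 3 endings of a capture are one library, and the KO cells of the same captures share the fit. The 2 WT mice of a repeat carried the same hashtag, so n = 3 counts captures and not mice. Strain, age, allele and breeding scheme are not given in the sources used here, so St8sia6 genotype and any other inherited difference between the mice cannot be told apart.

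St8sia6 encodes a sialyltransferase of the Golgi that adds sialic acid in an alpha-2,8 linkage, and the glycans it makes can be bound by inhibitory Siglec receptors. T cells within the gut epithelium sit between enterocytes, held by the integrin CD103 (Itgae) binding E-cadherin. They are mostly CD8+ cells with alpha-beta or gamma-delta receptors, keep granzymes and chemokines ready, and carry CD4+ cells as a smaller population. Classical MHC class I molecules (H2-K1, H2-D1) present peptides to CD8+ cells, and the nonclassical Qa and T genes beside them on chromosome 17 encode ligands of restricted use.

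The gated cells carried the markers of intraepithelial T cells. Cd3g was detected in 96.4% of them, Cd3d in 91.4%, Itgae in 90.4%, Gzma in 84.9% and Cd8a in 82.3%, while among the 7736 other epithelium cells with under 20% mitochondrial molecules these shares were 59.2%, 54.7%, 58.8%, 65.1% and 53.2% with a median of 4889 molecules in gated and 4932 in other cells. Cd3e, Cd79a and Epcam set the gate and are no finding. The B cell gene Ms4a1 was detected in 0.0669% of gated cells, and Col3a1 in none. The summed libraries held 3155898 to 9738616 molecules in het and 1707554 to 6919148 in WT. No barcode was shared within a capture, and 139 were shared across captures. The top hashtag of a cell was the WT hashtag in 97.99%, 95.74% and 100% of the WT cells of captures 1, 2 and 3. Levels below are counts per 1000000 molecules (CPM) scaled by TMM factors, each from the sum of one genotype's cells in one capture, and are listed in the order of captures 1, 2 and 3.

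The promoters of 5 class I genes are shown because these genes lie within one stretch of chromosome 17 and differed between het and WT in opposite directions (values below). The first 3 were lower in het and the last 2 higher. Each line gives the 150 bases before the annotated start, from RefSeq on GRCm38.p6, with CCAAT boxes (CCAAT, or ATTGG on the other strand) in capitals. The exception is H2-Q7, whose printed bases run to 35439154, past the gene start at 35439140. Distances for H2-Q7 are counted from the end of its printed bases.
H2-D1 (chr17:35262944-35263093, + strand): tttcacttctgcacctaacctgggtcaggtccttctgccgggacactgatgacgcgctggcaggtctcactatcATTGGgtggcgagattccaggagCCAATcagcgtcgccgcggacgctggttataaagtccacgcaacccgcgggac
H2-Q2 (chr17:35342157-35342306, + strand): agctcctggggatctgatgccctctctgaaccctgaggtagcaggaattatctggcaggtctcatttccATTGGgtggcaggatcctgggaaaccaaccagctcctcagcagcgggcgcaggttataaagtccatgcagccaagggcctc
H2-Q10 (chr17:35469939-35470088, + strand): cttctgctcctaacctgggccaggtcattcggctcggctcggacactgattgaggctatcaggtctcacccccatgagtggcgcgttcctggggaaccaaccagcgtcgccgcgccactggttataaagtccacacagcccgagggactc
H2-Q6 (chr17:35424700-35424849, + strand): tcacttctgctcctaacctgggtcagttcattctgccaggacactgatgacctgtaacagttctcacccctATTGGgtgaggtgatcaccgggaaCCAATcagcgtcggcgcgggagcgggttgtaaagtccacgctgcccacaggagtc
H2-Q7 (chr17:35439005-35439154, + strand): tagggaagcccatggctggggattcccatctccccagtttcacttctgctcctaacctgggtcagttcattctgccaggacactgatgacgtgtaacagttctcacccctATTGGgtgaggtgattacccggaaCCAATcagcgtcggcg

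In the 250 bases before the start, CCAAT on either strand was found at 2 places in H2-D1, H2-Q6 and H2-Q7, at 1 place in H2-Q2 and not in H2-Q10, and 33.85% of 32851 mouse promoters of that length held it. TATAAA on either strand was found in H2-D1, H2-Q2 and H2-Q10, beginning 26, 27 and 28 bases before the start, and not in H2-Q6 or H2-Q7, against 12.4% of all promoters. The searched bases of H2-Q7 end before the place that lines up with this TATAAA, so that place was not searched in H2-Q7. H2-Q2 held another TATAAA beyond the bases printed. Within the printed bases, CCAAT and TATAAA matches did not overlap. Over the printed bases, H2-D1 was 77.8% identical to H2-Q6 and 61.5% identical to H2-Q2 in a global alignment. The printed bases of H2-Q7 end earlier than those of H2-Q6 in this shared sequence. This puts its CCAAT boxes 40 and 16 bases before that end, where those of H2-Q6 lie at 79 and 55.

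The heat-shock genes Hspa1a and Hspa1b lie in the same stretch. They are shown because 149 of the 150 printed bases are the same, with a heat-shock element (GAANNTTC, its own reverse complement) in capitals, which 6.69% of all promoters hold. Their levels should be read together, since reads of near-identical copies can be split between them. The same holds for members of the H2-Q and H2-T families.
Hspa1b (chr17:34959239-34959388, - strand): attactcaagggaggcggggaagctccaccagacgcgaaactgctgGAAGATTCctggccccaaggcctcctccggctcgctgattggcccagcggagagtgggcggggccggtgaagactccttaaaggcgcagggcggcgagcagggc
Hspa1a (chr17:34972157-34972306, - strand): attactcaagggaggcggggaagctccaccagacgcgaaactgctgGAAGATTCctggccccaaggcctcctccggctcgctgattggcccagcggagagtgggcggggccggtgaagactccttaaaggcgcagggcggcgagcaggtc

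St8sia6 itself (chromosome 2, 13651018 to 13794734) was close to the limit of detection in these cells. The het sums held 10, 2 and 7 molecules, the KO sums 24, 11 and 2 and the WT sums 8, 6 and 9, and it was seen in 0.361% of het, 0.588% of KO and 0.693% of WT cells. Its log2 fold change in het was -1.26 (SE 0.73, edgeR adjusted p 0.545), and the 3 groups overlapped. The allele is not given, so these 5' counts do not check the genotype.

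In all, 70 genes differed between het and WT epithelial T cells, 35 of them higher and 35 lower in het. They are 0.581% of the 12038 genes tested (edgeR quasi-likelihood F test with capture as a block, Benjamini-Hochberg adjusted p under 0.05). The genes lower in het were led by a ribosomal protein pseudogene, class I and heat-shock genes of chromosome 17 and a group on chromosome 8. By p, the genes higher in het began with 4833420G17Rik, Nr4a2, Cela1, Ppp1r15a, Bik, H2-Q6 and Braf. The levels of 1522 genes (12.6%) did not overlap between the 3 het and the 3 WT sums. Leaving out capture 1, 2 or 3 left 18, 23 and 94 calls, and 10 of the 70 genes were called each time. Without the capture block 22 of the 70 were called, 7 higher and 15 lower; among the genes described below these were Gm10260, 4833420G17Rik, Bik, Braf, Syngr3, Ocel1, Mtus1, Gm38414, Cdh1, Pacsin1, Ighm and, in the H2 window, BC023719, H2-Q1, H2-Q2, H2-Q6, H2-Q10, H2-T3, H2-DMb2 and Hspa1b. KO cells, set against the same WT sums, gave 79 calls (0.656%), and KO values stand beside the het values below because both comparisons share the WT cells.

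**Figure D1:**
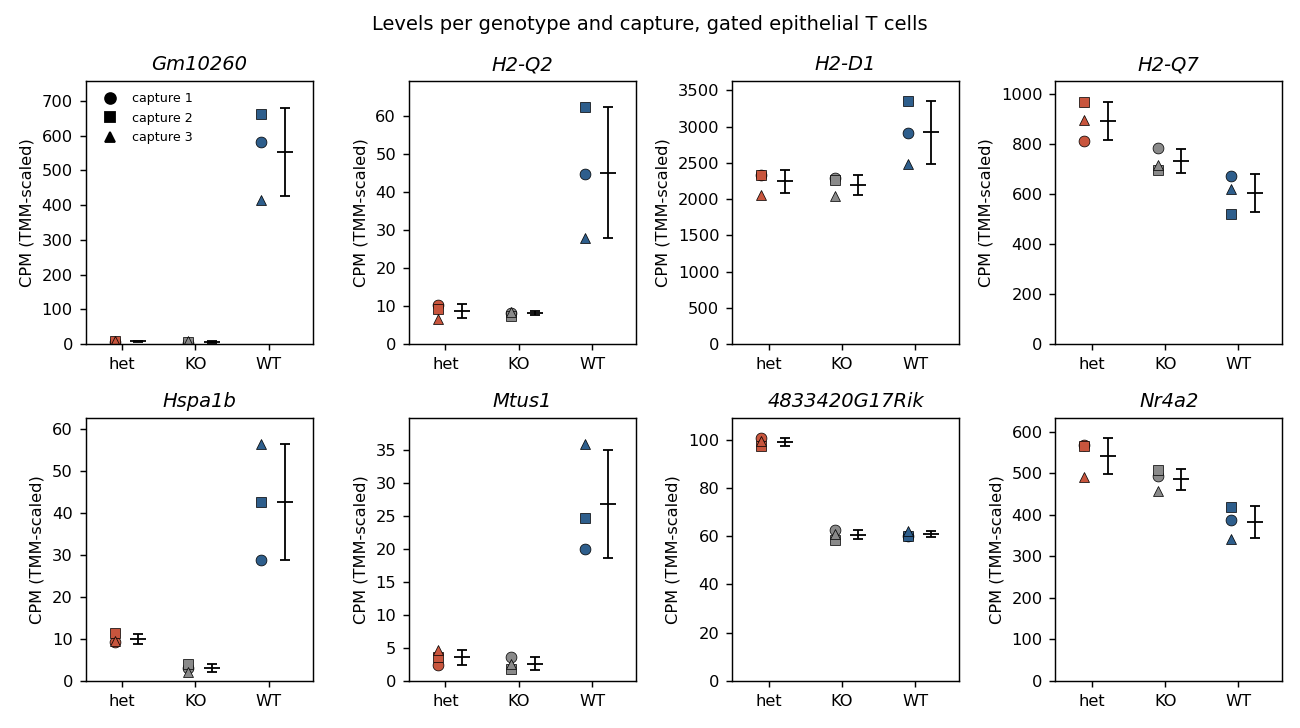
Level of 8 genes (CPM, TMM-scaled, y axis from 0) in gated epithelial T cells of het, KO and WT mice. Each symbol is the sum of one capture, and the bars give mean and SD over 3 captures. Gm10260, H2-Q2, H2-D1, Hspa1b and Mtus1 were lower in het than in WT in each capture and H2-Q7 and Nr4a2 higher, while 4833420G17Rik measured 97.3 to 101 CPM in het and 58.6 to 62.5 CPM in KO and WT.

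The difference with the smallest p was at Gm10260 (ENSMUSG00000069117.4, chromosome 13, 97760087 to 97760609), a processed copy of the ribosomal protein gene Rps18 that RefSeq names Rps18-ps6. It measured 6.22, 7.94 and 9.80 CPM in het, 4.50, 6.47 and 9.17 CPM in KO and 583, 664 and 415 CPM in WT. The log2 fold change in het was -6.20 (SE 0.19, edgeR adjusted p 2.04e-08). Its counts were high in the WT sum of every capture and low in every het and KO sum. Per cell, 2.97%, 4.21% and 4.24% of het cells held a molecule of it, with at most 2 in a cell, against 62.4%, 80.0% and 45.9% of WT cells, with at most 22, 26 and 41. Another copy, Gm11361 (Rps18-ps5), named after its value was seen, was also lower in het (log2 -3.60, SE 0.63, edgeR adjusted p 0.0343). The Gm11361 value rests on 6 molecules in the het sums and 40 in the WT sums. Gm11361 was called in 0 of 3 fits that left out a capture. Whether reads were split between these copies was not tested. The parent gene Rps18 (chromosome 17, 33951998 to 33955665) showed the opposite direction without passing the test. It measured 1874, 1591 and 1689 CPM in het and 1390, 857 and 1521 CPM in WT (log2 0.48, SE 0.11, edgeR adjusted p 0.102). Summed without scaling, Rps18 and Gm10260 gave 1854, 1613 and 1704 CPM in het and 1961, 1537 and 1898 in WT, ranges that overlapped.

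The same gate in the other tissues gave a different pattern within WT. In lamina propria T cells Gm10260 was found in 0%, 1.21% and 0% of het cells and in 35.7%, 76.15% and 0% of WT cells of captures 1, 2 and 3, the last being 0 of 60 cells with an upper 95% limit of 5.96% (exact binomial, counting error only). In colon T cells it was found in 0.549%, 4.61% and 2.01% of het and in 1.35%, 84.8% and 2.01% of WT cells. In these tissues, then, some WT sums were as low as het, whereas all 3 epithelial WT sums were high. The genotype of the WT sum of lamina propria capture 3 rests on a narrow margin. Its ending had median counts of 198 for the WT and 156 for the het hashtag. WT was the top hashtag in 81.67% of its 60 gated cells, against 100% in the WT cells of colon captures 1 and 3. Captures of different tissues carry no label that pairs them.

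**Figure D2:**
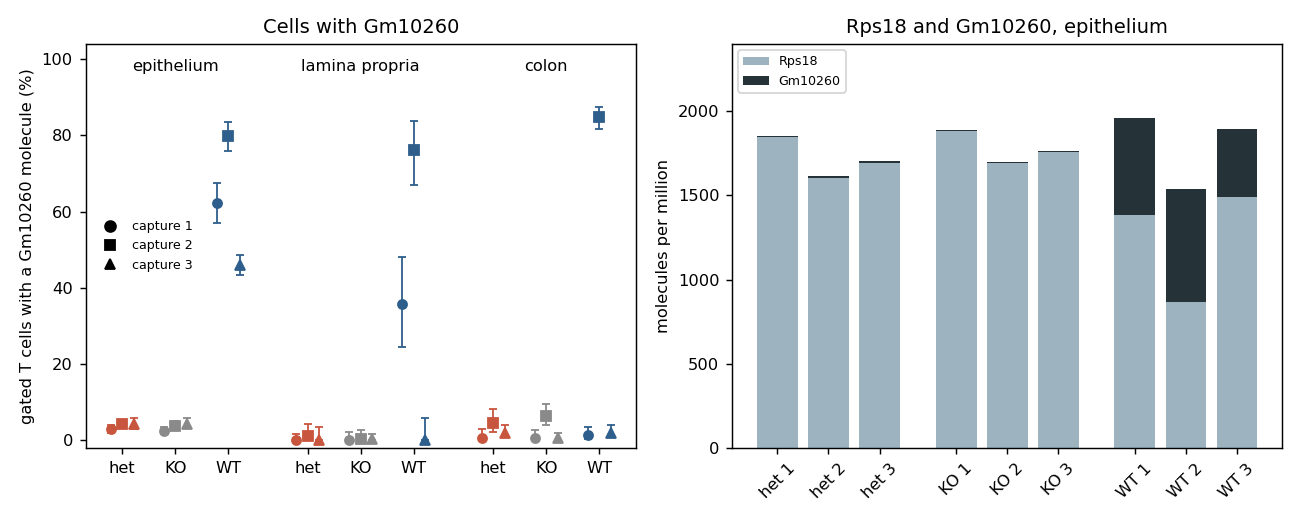
Left, share of gated T cells with at least 1 Gm10260 molecule (%, y axis) by tissue and genotype, 1 symbol per capture with its exact 95% binomial interval. Right, Rps18 and Gm10260 unscaled CPM in the epithelium, stacked for each genotype and capture. WT sums of the epithelium lie between 45.9% and 80.0%, het sums between 2.97% and 4.24%, and the stacked totals of het and WT overlap.

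Genes near the H2 complex are flagged here as possible genetic background, which cannot be told apart from St8sia6 genotype without the breeding scheme. Of 173 tested genes with a start between 30 and 40 Mb of chromosome 17, 14 were called (8.09%), 3 higher and 11 lower in het, against 0.581% of all genes. The rest of chromosome 17 gave 7 of 449 (1.56%). Around St8sia6, within 15 Mb on chromosome 2, 0 of 126 genes were called by edgeR. Without capture 2 the count near H2 was 4, without capture 1 it was 8, and without the capture block it was 8.

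**Figure D3:**
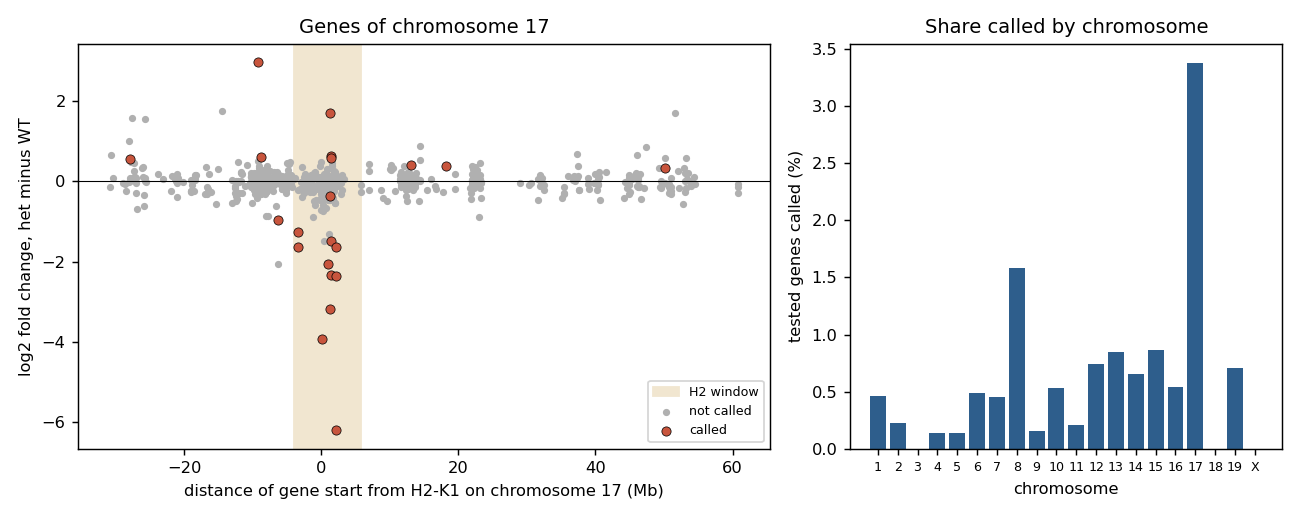
Left, log2 fold change (het minus WT) of tested genes of chromosome 17 by the distance of their start from H2-K1 (Mb), called genes in red and the H2 window shaded. Right, share of tested genes called (%) on each chromosome. Called genes cluster in the shaded window, where 11 of 14 are lower in het, and chromosomes 17 (3.38%) and 8 (1.59%) have the highest shares.

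Class I genes moved in both directions. H2-D1, a classical presenting molecule, measured 2335, 2333 and 2063 CPM in het and 2917, 3357 and 2482 CPM in WT (log2 -0.37, SE 0.06, edgeR adjusted p 0.0232). All 3 het levels were below all WT levels, while the other classical gene, H2-K1, overlapped (log2 0.11, edgeR adjusted p 0.415), as did the light chain B2m (log2 0.01, edgeR adjusted p 0.988). H2-D1 lost its call without capture 1 (log2 -0.40, edgeR adjusted p 0.224) or capture 2 (log2 -0.29, edgeR adjusted p 0.0934).

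Of the Qa genes, H2-Q2 (35342307 to 35346764) measured 10.3, 9.37 and 6.64 CPM in het, 8.33, 7.52 and 8.54 CPM in KO and 44.8, 62.5 and 28.01 CPM in WT (log2 -2.33, SE 0.21, edgeR adjusted p 0.000542). H2-Q1 (log2 -3.19, SE 0.35), H2-Q10 (log2 -1.50, SE 0.18) and the thymus leukaemia antigen gene H2-T3 (log2 -1.65, SE 0.28) were also lower in het (edgeR adjusted p 0.00149, 0.00344 and 0.0300). H2-Q6 and H2-Q7, which encode Qa-2 antigens, were higher. H2-Q7 measured 812, 967 and 898 CPM in het, 786, 695 and 716 CPM in KO and 674, 523 and 620 CPM in WT (log2 0.57, SE 0.09, edgeR adjusted p 0.0231), and it lost its call without capture 2 (log2 0.41, edgeR adjusted p 0.109) or capture 3 (log2 0.59, edgeR adjusted p 0.0849). H2-Q6 followed with log2 0.63 (SE 0.09, edgeR adjusted p 0.0118), and H2-Q4 overlapped between the groups (log2 -0.02, edgeR adjusted p 0.958). In all, 2 of 19 tested class I and antigen-processing genes rose and 5 fell, against a called share of 0.581% over all genes. The list median was -0.02, and -0.0024 over all genes.

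The inducible chaperone gene Hspa1b (34956429 to 34959238), which lies between the class III genes of the same window, measured 9.24, 11.4 and 9.48 CPM in het, 3.00, 4.02 and 2.08 CPM in KO and 28.9, 42.6 and 56.5 CPM in WT (log2 -2.07, SE 0.20, edgeR adjusted p 0.000775). Het lay between KO and WT without overlap. Hspa1a showed the same size of difference with more spread (log2 -2.06, SE 0.43, edgeR adjusted p 0.0580). No other gene of the 16 tested heat-shock and chaperone genes passed, including Dnajb1 (log2 -0.25, edgeR adjusted p 0.323) and Hsph1 (log2 -0.21, edgeR adjusted p 0.667), and the list median was 0.01.

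Other called genes of the window were BC023719 (36111397 to 36117093), with 0, 0.305 and 0.316 CPM in het and 15.9, 21.1 and 11.2 CPM in WT (log2 -6.20, SE 0.47, edgeR adjusted p 0.000203), the gene Gm8909 (log2 -2.35), the class II chaperone gene H2-DMb2 (log2 -3.92), the axonemal dynein gene Dnah8 (log2 -1.26) and 1700097N02Rik (log2 -1.63), each lower in het. The H2-DMb2 value rests on 7 molecules in the het sums and 50 in the WT sums. H2-DMb2 was called in 1 of 3 fits that left out a capture. The cytokine gene Tnf was higher and is described with the other cytokines.

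Chromosome 8 held the next highest share of calls, 10 of 630 genes (1.59%), 8 of them lower in het. Mtus1, which encodes a microtubule-associated protein, measured 2.49, 3.56 and 4.74 CPM in het, 3.67, 1.75 and 2.50 CPM in KO and 20.0, 24.7 and 36.0 CPM in WT (log2 -2.90, SE 0.25, edgeR adjusted p 0.000542). Gm38414 fell by 3.42 and Ocel1 by 1.16 on the log2 scale (SE 0.35 and 0.11, edgeR adjusted p 0.00120 and 0.000775). The 3 het levels of each lay below the 3 WT levels. Mtus1 and Gm38414 lie 35 to 42 Mb along the chromosome, where 4 of 17 tested genes were called, a window drawn after their positions were seen. Cdh1, which encodes E-cadherin, was also lower (log2 -0.60, SE 0.08, edgeR adjusted p 0.00866), as was, named after its position was seen, Ppp1r3b, a glycogen-targeting subunit of protein phosphatase (log2 -0.83, SE 0.12, edgeR adjusted p 0.0121). Outside these chromosomal groups, Tspan9, which encodes a tetraspanin, was lower in het (log2 -0.78, edgeR adjusted p 0.00626), and on chromosome 17, just outside the H2 window, so was Pacsin1 (log2 -0.96, edgeR adjusted p 0.00866). In all, 9 genes were called in each of 11 alternative fits of all gated T cells: Gm10260, BC023719, H2-Q1, H2-Q2, Hspa1b, Mtus1, Gm38414, Ocel1 and 4833420G17Rik.

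Of these, 4833420G17Rik (chromosome 13, 119462015 to 119486120) was the gene higher in het with the smallest p, and its het levels lay above those of KO as well as WT. It measured 101, 97.3 and 99.5 CPM in het, 62.5, 58.6 and 60.8 CPM in KO and 60.1, 60.1 and 62.4 CPM in WT (log2 0.70, SE 0.07, edgeR adjusted p 0.000880). The KO and WT levels overlapped (KO log2 -0.01, edgeR adjusted p 0.983). The difference between het and KO was not tested. Within the gated subsets described below, it was called higher in het than in WT in gamma-delta cells (log2 0.64, edgeR adjusted p 0.0258). CD4 gated cells gave log2 1.185 (edgeR adjusted p 0.0331). In CD8 alpha-beta gated cells 4833420G17Rik did not pass (log2 0.38, edgeR adjusted p 0.533).

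Immediate early genes, which T cells switch on soon after receptor or cytokine signalling, gave calls in the higher direction. Nr4a2, an orphan nuclear receptor gene, measured 568, 566 and 491 CPM in het, 492, 507 and 456 CPM in KO and 386, 419 and 341 CPM in WT (log2 0.51, SE 0.05, edgeR adjusted p 0.00125). Its relative Nr4a3 (log2 0.87, SE 0.14, edgeR adjusted p 0.0231) and the AP-1 gene Fosb (log2 0.84, SE 0.15, edgeR adjusted p 0.0396) rose as well, and their het and WT levels did not overlap. These 3 of 24 tested immediate early genes were called, against 0.581% of all genes. Of the 24, 19 were higher in het, where 5955 of all 12038 genes were, and the list median was 0.34 against -0.0024 over all genes. Nfkbia (log2 0.44, edgeR adjusted p 0.0538), Klf6 (log2 0.36, edgeR adjusted p 0.0682) and Egr1 (log2 0.43, edgeR adjusted p 0.0684) stood just short of the threshold, and Fos and Junb did not pass (edgeR adjusted p 0.182 and 0.146). Nr4a2 did not pass without capture 1 (log2 0.48, edgeR adjusted p 0.0772) or without the capture block (log2 0.51, edgeR adjusted p 0.0510). Nr4a3 and Fosb were each called in 1 of 3 fits that left out a capture, and neither was called without the capture block. The genotypes were pooled after tissue dissociation, which is itself known to switch on such genes, so handling and genotype of a mouse cannot be told apart here.

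Tnfaip3, which encodes A20, an inhibitor of NF-kappaB signalling, measured 851, 991 and 836 CPM in het, 799, 769 and 869 CPM in KO and 622, 675 and 543 CPM in WT (log2 0.55, SE 0.08, edgeR adjusted p 0.0151). Ppp1r15a, which encodes the stress-induced phosphatase subunit GADD34, was higher by log2 0.59 (SE 0.08, edgeR adjusted p 0.00866). Both groups of 3 levels were separate for each of these genes. The transcription factor gene Id2 (log2 0.43, edgeR adjusted p 0.0186), the kinase gene Braf (log2 0.48, edgeR adjusted p 0.0149) and the apoptosis gene Bik (log2 1.44, edgeR adjusted p 0.00873) were also higher in het, as were Cela1 (log2 0.88), Tulp4 (log2 0.56), 1700025G04Rik (log2 0.64) and Syngr3 (log2 2.95), with edgeR adjusted p between 0.00842 and 0.0309. Tulp4 and Syngr3 lie on chromosome 17 outside the H2 window, Syngr3 with its start at 24685092. The Syngr3 value rests on 6 molecules in the WT sums and 81 in the het sums. Tulp4, 1700025G04Rik and Syngr3 were called in 0 of 3 fits that left out a capture. Id2 was the 1 of 19 tested lineage transcription factors that passed. Tbx21, which encodes T-bet, overlapped between the groups (log2 0.09, edgeR adjusted p 0.716).

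The cytokine genes Il22 and Tnf were higher in het, with a wide spread between captures. Il22 measured 31.1, 14.35 and 5.69 CPM in het, 27.8, 4.37 and 6.67 CPM in KO and 0, 1.99 and 1.03 CPM in WT (log2 3.53, SE 0.58, edgeR adjusted p 0.0242). Tnf measured 26.3, 69.2 and 16.1 CPM in het and 10.6, 8.76 and 9.44 CPM in WT (log2 1.69, SE 0.32, edgeR adjusted p 0.0465). The lowest het level exceeded the highest WT level for both. Il22 did not pass without capture 1 (log2 2.85, edgeR adjusted p 0.143) or 3 (log2 4.17, edgeR adjusted p 0.0589), and Tnf did not pass without capture 1 (log2 1.84, edgeR adjusted p 0.163) or 2 (log2 0.91, edgeR adjusted p 0.266). Ifng, with 106, 209 and 72.7 CPM in het, 97.0, 97.2 and 86.5 CPM in KO and 28.3, 43.0 and 55.0 CPM in WT, missed the threshold (log2 1.44, SE 0.29, edgeR adjusted p 0.0524); it passed without capture 3 (log2 2.12, edgeR adjusted p 0.0152) and in the stricter hashtag assignment (log2 1.41, edgeR adjusted p 0.0401). Il17a overlapped between the groups, at 48.0, 27.3 and 0.316 CPM in het and 0, 0.796 and 6.78 CPM in WT (edgeR adjusted p 0.372). In all, 1 of 18 tested T helper 1 genes and 1 of 15 tested T helper 17 genes rose, against 0.291% of all genes, and the list medians were 0.11 and 0.55.

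Of 16 tested natural killer and innate receptor genes, Klra7, which encodes the inhibitory receptor Ly49G, was called. It measured 42.1, 17.6 and 84.4 CPM in het and 4.71, 2.79 and 4.13 CPM in WT (log2 3.61, SE 0.66, edgeR adjusted p 0.0389). Altogether 13 of the list were higher in het, with a median of 0.92, and 1 of 16 was called, where 5955 of all 12038 genes were higher and 0.581% were called. Klra6 (edgeR adjusted p 0.0672) and the NKG2D gene Klrk1 (edgeR adjusted p 0.0869) did not pass. Receptor genes of this cluster resemble one another, so reads can be split between them. Among 25 tested genes of sialic acid metabolism, St6gal1, which adds sialic acid in alpha-2,6 linkage, was the 1 called: 4.62, 3.36 and 0.948 CPM in het and 13.55, 13.1 and 3.98 CPM in WT (log2 -1.79, SE 0.25, edgeR adjusted p 0.00996). Its het and WT ranges overlapped across captures, though it was lower in het within each. St6gal1 was called in 1 of 3 fits that left out a capture. In the gated subsets described below, it was tested in CD4 gated cells but not in CD8 alpha-beta or gamma-delta gated cells. Entpd1, the ectoenzyme CD39, was lower (log2 -0.81, SE 0.15, edgeR adjusted p 0.0396), the 1 call among 10 tested regulatory T cell genes. Of 3 fits that left out a capture, Entpd1 was called in 0 and Klra7 in 1. The 3 called receptor variable genes (Trav13-2, Trdv1 and Tcrg-V1) were each lower in het.

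Lists of the functions of intraepithelial T cells held no calls, which in lists of this size is near the share of 0.581% over all genes. None of 14 tested cytotoxic genes, 14 residency and homing genes, 18 receptor and CD3 genes, 6 tested chemokine genes or 32 oxidative phosphorylation genes passed the edgeR test, with medians of 0.11, -0.0019, -0.02, 0.25 and 0.01. Gzma measured 16080, 14310 and 15820 CPM in het and 13300, 15090 and 17230 CPM in WT (log2 0.03, SE 0.07, edgeR adjusted p 0.944). Gzmb (log2 0.08, SE 0.08), Ccl5 (log2 0.14, SE 0.07) and Itgae (log2 0.01, SE 0.08) overlapped between the groups in the same way. The lineage genes Cd8a (log2 -0.01), Cd8b1 (log2 -0.42), Cd4 (log2 1.44, edgeR adjusted p 0.150) and Trdc (log2 -0.49) did not pass, nor did Klf2 (log2 -0.38). Ccl4, a chemokine of activated T cells, did not overlap and did not pass (log2 0.80, SE 0.18, edgeR adjusted p 0.0951). Interferon-stimulated genes (20 tested, median -0.09), cell cycle genes (19, median 0.17), inhibitory receptors (12, median 0.02), the aryl hydrocarbon receptor list (5, median -0.04), TGF-beta genes (12, median -0.10) and common gamma chain receptors (13, median -0.10) gave no call either, and 10 of 11 tested naive and recirculation genes were lower without a call (median -0.26). At an unadjusted p under 0.05 the fit gave 1407 genes in all. Of 10 tested TNF superfamily ligands Tnf was the 1 called (median 0.08). Ide, fixed as a named gene from earlier results on KO cells, measured 81.2, 85.4 and 72.05 CPM in het, 111, 116 and 115 CPM in KO and 71.85, 84.8 and 64.3 CPM in WT (het edgeR adjusted p 0.598).

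Traces of other cell types were compared beside these results. A pair of B cell markers were lower in het. Ighm measured 39.5, 28.9 and 44.55 CPM in het and 100.1, 110.3 and 66.8 CPM in WT (log2 -1.33, SE 0.19, edgeR adjusted p 0.00994), and Cd79b was lower (log2 -0.73, SE 0.13, edgeR adjusted p 0.0363). The 7 B cell markers other than Cd79a summed to 138 to 191 unscaled CPM in het and 219 to 236 in WT. Plasma cell markers summed to 105 to 163 in het and 144 to 164 in WT, epithelial markers to 377 to 723 in het and 507 to 688 in WT, and myeloid markers to 196 to 221 in het and 174 to 182 in WT. Mast cell markers summed to 66.8 to 193 in het and 73.8 to 100.5 in WT, and stromal and endothelial markers to 15.5 to 22.97 in het and 10.7 to 24.5 in WT. None of these 5 lists had a call (4, 12, 8, 4 and 1 tested; medians -0.21, -0.03, 0.61, 0.63 and 0.01). Of 11 tested class II genes, 10 were lower in het, where 6083 of all 12038 genes were, with a median of -0.47 and 1 call, H2-DMb2. The part of free RNA or of B cell traces in the class II and Ighm values was not tested.

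The makeup of the T cells varied widely between captures. Cells were gated as CD4 (Cd4 molecule, no Cd8b1 or Trdc), CD8 alpha-beta (Cd8b1, no Cd4 or Trdc) or gamma-delta (Trdc, no Cd4 or Cd8b1). CD4 gated cells were 24.3%, 34.9% and 5.65% of het and 10.9%, 7.25% and 5.16% of WT T cells. CD8 alpha-beta gated cells were 30.6%, 14.9% and 30.5% of het and 23.6%, 19.2% and 45.8% of WT, and gamma-delta gated cells 20.4%, 27.96% and 25.99% of het and 38.2%, 42.2% and 24.3% of WT. The groups overlapped for each subset: the difference was 13.85 points for CD4, -4.18 for CD8 alpha-beta and -10.1 for gamma-delta (two-sided exact permutation p 0.3, 0.8 and 0.3, n = 3 captures each, smallest possible p 0.1). A share is read from detected transcripts, so a cell with none of the 3 genes detected (18.4% to 35.2% of het and 21.6% to 25.8% of WT) is in none of them. In the sums of all gated T cells a shift in subsets and a change of level per cell cannot be told apart, and the same comparison was made within each subset.

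**Figure D4:**
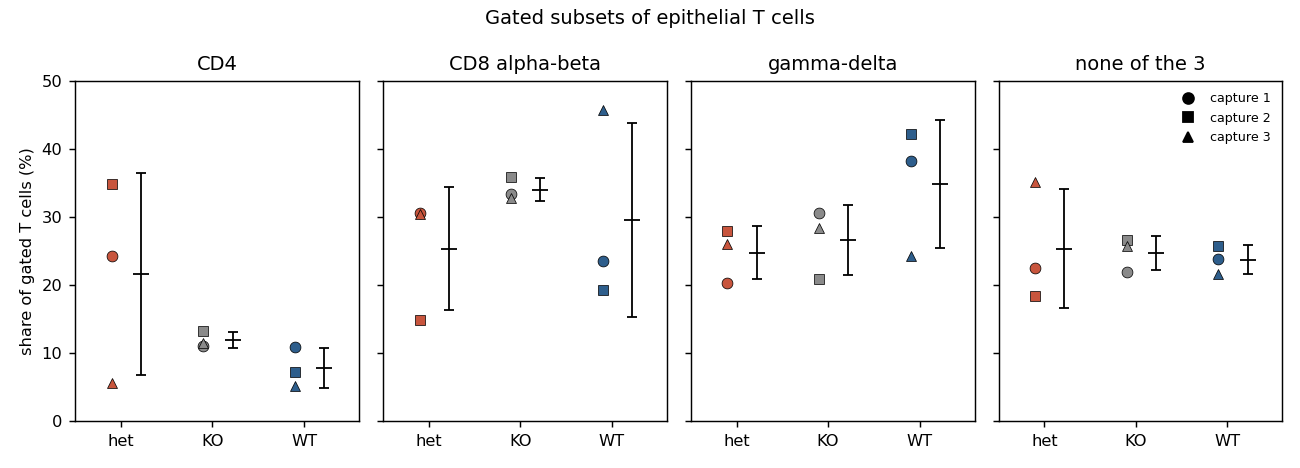
Share of gated epithelial T cells (%, y axis) that were CD4, CD8 alpha-beta or gamma-delta gated, or had none of the 3 transcripts, in het, KO and WT. Each symbol is a capture, and bars give mean and SD over 3 captures. Het ranges from 5.65% to 34.9% in the CD4 panel and overlaps WT in every panel.

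In CD4 gated cells 227 of 7730 tested genes were called (2.94%), 64 higher and 163 lower in het. Naive and recirculation genes were lower: all 10 tested members fell, with a median of -2.39 against 0.0013 over all genes. Lef1, a transcription factor gene of naive T cells, measured 38.1, 32.1 and 53.2 CPM in het, with a mean of 84.7 CPM in KO, and 370.4, 224 and 127 CPM in WT (log2 -2.84, SE 0.25, edgeR adjusted p 3.65e-06). Ccr7, the lymph node homing receptor gene, measured 13.7, 11.3 and 23.6 CPM in het and 297, 331 and 48.0 CPM in WT (log2 -4.43, SE 0.43, edgeR adjusted p 8.08e-06). For both, the highest het level was below the lowest WT level. Tcf7 (log2 -2.14), Satb1 (log2 -2.39), Klf2 (log2 -2.39) and S1pr1 (log2 -2.76) fell as well, and Klf2 overlapped, at 44.9, 48.8 and 289 CPM in het and 637, 392 and 161 CPM in WT. Bach2 (log2 -3.12), Bcl6 (log2 -1.27) and St6gal1 (log2 -4.08) were also lower, with the checkpoint receptor genes Pdcd1 (log2 -2.52) and Btla (log2 -2.99).

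Several effector genes of CD4 gated cells rose in het. In all, 5 of 12 tested cytotoxic genes rose (Gzma, Gzmb, Gzmk, Nkg7 and Prf1), none fell, and the median was 0.80. Over all 7730 genes tested in these cells, 64 rose and 163 fell. Gzma measured 13880, 11100 and 7289 CPM in het and 5212, 2549 and 6289 CPM in WT (log2 1.21, SE 0.25, edgeR adjusted p 0.0105). The chemokine genes Ccl3, Ccl4 and Ccl5 rose by log2 1.53, 1.62 and 1.19, and Xcl1 fell by 1.68. Ifng measured 217, 399 and 189 CPM in het and 62.6, 112 and 147 CPM in WT (log2 1.29, SE 0.23, edgeR adjusted p 0.00343). Residency genes Itgae (log2 1.08), Cd69 (log2 0.74) and Runx3 (log2 0.78) rose, as did Nr4a2 (log2 1.47), Nr4a3 (log2 1.28), Rora (log2 0.96), Il22 (log2 2.82) and Cd8a (log2 1.24), the CD8 alpha chain that CD4 cells of the gut epithelium can express. Immediate early genes went both ways in these cells, with 12 of 22 higher (3877 of all 7730 genes were), a median of 0.10, and Dusp5 lower (log2 -1.18). Of 9 tested regulatory T cell genes, 9 were lower (median -1.32) and 3 fell (Ikzf2, Tnfrsf4 and Capg), where 3853 of all 7730 genes were lower and 163 fell. Il17a (edgeR adjusted p 0.894) and Foxp3 (edgeR adjusted p 0.429) did not pass.

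These CD4 sums are small, with 270, 622 and 40 het cells and 38, 34 and 77 WT cells. The top hashtag was WT in 100%, 88.24% and 100% of these WT cells and het in 100% of the het cells. The stricter hashtag assignment kept 34, 22 and 75 of the WT cells. The WT levels of Lef1, Ccr7 and Klf2 were lower in capture 3 than in the other captures. Without capture 1, 2 or 3 the calls numbered 48, 20 and 367, and of the 10 naive genes 3, 3 and 10 were called, while the 5 cytotoxic calls became 0, 0 and 7. Under the stricter hashtag assignment 147 genes were called, 6 of the naive and 3 of the cytotoxic genes among them. Ighm, which marks B cells, was also lower in het CD4 gated cells (log2 -3.49, edgeR adjusted p 0.000218), and its part in the naive gene values was not tested.

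**Figure D5:**
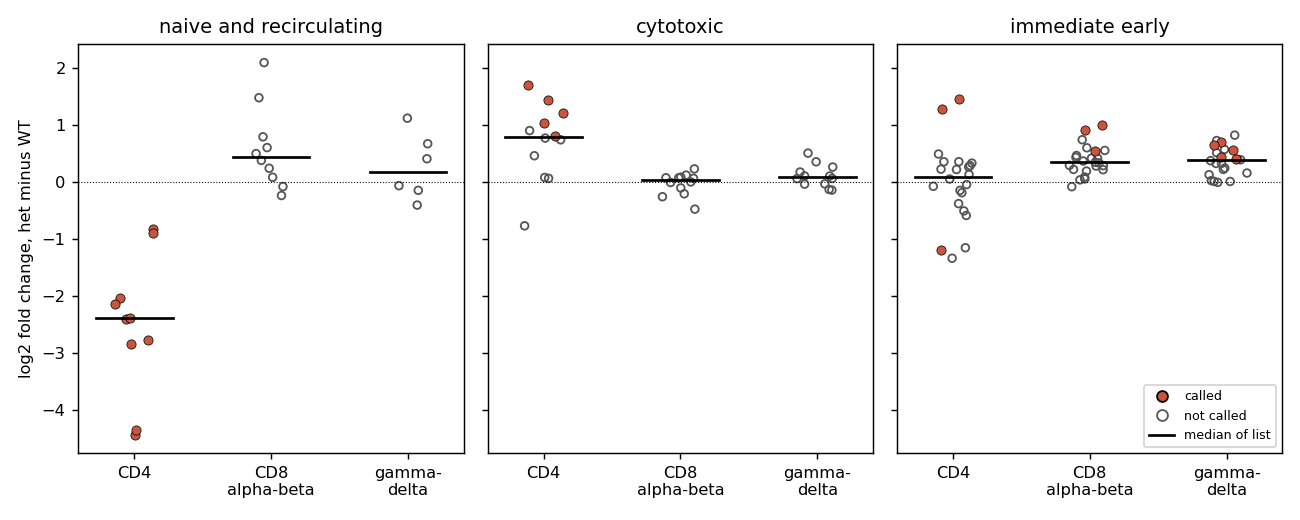
Log2 fold change (het minus WT, y axis) of tested genes of 3 lists within CD4, CD8 alpha-beta and gamma-delta gated epithelial T cells. Each circle is a gene, filled where called, and the bar is the median of the list. All 10 naive genes lie below 0 in CD4 gated cells (median -2.39), and the immediate early medians are 0.10 in CD4, 0.35 in CD8 alpha-beta and 0.39 in gamma-delta gated cells.

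In CD8 alpha-beta gated cells 24 of 9627 genes were called (0.249%), 8 higher and 16 lower. Immediate early genes made up 3 of the higher ones: Nr4a2 (log2 0.55), Nr4a3 (log2 1.01) and Fosb (log2 0.92) rose. Of 23 tested members 22 were higher, where 4812 of all 9627 genes were. The list median was 0.35 against -0.00014 over all genes. Fosb measured 184, 175 and 135 CPM in het and 125, 82.0 and 64.0 CPM in WT (SE 0.14, edgeR adjusted p 0.00312). Ppp1r15a (log2 0.73), Tnfaip3 (log2 0.59), H2-Q6 (log2 0.55), H2-Q7 (log2 0.48) and Rps18 (log2 0.55) rose, and Gm10260 (log2 -6.42), H2-Q2 (log2 -3.02), H2-D1 (log2 -0.50), Hspa1b (log2 -2.05) and Mtus1 (log2 -3.04) fell. Rgs1, a regulator of chemokine receptor signalling that marks gut T cells, fell to 1530, 1738 and 1535 CPM in het, against 2294, 2027 and 2098 CPM in WT (log2 -0.42, SE 0.07, edgeR adjusted p 0.00865). None of the 12 tested cytotoxic or 10 tested naive genes passed the edgeR test (medians 0.04 and 0.44), which is not a test that the subsets differ. Without capture 3, 5 genes were called, and without the capture block 9, with 0 immediate early genes among them in both edgeR fits.

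In gamma-delta gated cells 62 of 9319 genes were called (0.665%), 33 higher and 29 lower. In all, 5 of 22 tested immediate early genes rose (Nr4a2, Jun, Klf6, Zfp36 and Nfkbia), 21 of 22 were higher, and the median was 0.39. Over all 9319 genes, 33 rose, 4618 were higher and the median was -0.0023. Of 11 tested natural killer receptor genes, 4 were called higher, with Tyrobp and Klra7 (log2 3.22), Klre1 (log2 2.57) and Klrk1 (log2 1.78), and 1 lower, Klra5 (log2 -0.98). Klre1 measured 38.96, 130.2 and 74.8 CPM in het and 14.7, 17.8 and 8.91 CPM in WT (SE 0.56, edgeR adjusted p 0.0363). The inhibitory receptor gene Lag3 (log2 0.50), Ccl4 (log2 0.54), Id2 (log2 0.49) and Runx1 (log2 0.69) rose, as did Tyrobp (log2 0.57), the adaptor of activating receptors. The class II genes H2-Ab1 (log2 -1.14) and H2-Aa (log2 -0.96) fell beside Ighm (log2 -1.15), and the haemoglobin genes Hbb-bs and Hba-a1 were lower as well (log2 -3.66 and -3.73), Hbb-bs with 166 CPM in WT capture 2 and 0.812 to 12.9 CPM in het. Without capture 2 or 3 the calls numbered 24 and 18, and without the capture block 8. Of the immediate early genes, 1 was called without capture 2, 2 without capture 3 and 0 by edgeR without the capture block.

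Whether a difference was particular to the epithelium was tested in one fit of the gated T cells of all 3 tissues. The difference between het and WT depended on tissue for 2 of 11631 genes (0.0172%), Trav13-2 and Plac8, and by edgeR for 0 without the capture block (661 at an unadjusted p under 0.05). In that fit 51 genes were called for the epithelium (0.438%), 6 for lamina propria (0.0516%) and 12 for colon T cells (0.103%). The 6 and 12 calls rest on fewer cells (1429 and 2998 gated cells, against 8969), so the counts are not a comparison of the tissues. H2-DMb2 missed this joint test (edgeR adjusted p 0.106), while its epithelial difference minus that of the colon alone was -4.57 (edgeR adjusted p 0.0225); colon T cells had 28.3, 10.7 and 12.4 CPM in het and 11.8, 11.6 and 4.77 CPM in WT. Nr4a2, H2-Q7, Hspa1b and 4833420G17Rik did not pass the joint test, which does not show that the tissues act alike.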

How the data were processed

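Gene and hashtag molecule counts were taken as deposited by the authors, in 1 filtered matrix per tissue, aligned to mm10. Cell Ranger and Seurat are named in the submitters' processing notes. The deposited cells had been filtered by the submitters on genes, molecules and mitochondrial share. Counts of gated cells were summed per genotype and capture, and the 9 sums were fitted with edgeR 4.0.16 (R 4.3.3; TMM factors, default filterByExpr, quasi-likelihood F test, genotype plus capture as a block, all 3 genotypes sharing the spread). Het, KO and WT of a capture share a library: deviations of het and WT from their group means correlated at 0.206, 0.129 and 0.150 within captures 1, 2 and 3. Numbers of captures follow barcode endings, and the labels do not tie an ending to a deposited sample.

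With the capture block, edgeR p-values measure how genotype differences vary from capture to capture, estimated over het, KO and WT sums together. Spread between captures that the genotypes share is taken out. A WT sum pools 2 mice. Intervals cover counting error only. No doublet caller was run and free RNA was not corrected; alternatives left out the 5% of cells with most molecules or required 80% or more of its hashtag molecules to carry the genotype of its ending, with 10 or more in all. Named genes were the 15 higher and 15 lower calls with the smallest p, a fixed set, and for each list its calls and up to 4 members with the smallest p; genes named outside this rule are marked or belong to the H2 window, and subset genes outside the lists were named after their values were seen. Members, lists and tests were chosen with earlier results of these data known. Positions and promoters are from RefSeq GRCm38.p6, matched by symbol for 26296 genes, by synonym for 360 and not for 5629. Scripts were tested on simulated data. Alternatives were no block, het and WT sums only, RLE factors, DESeq2 1.42.0, no filter on low counts, leaving out each capture, a stricter Cd3e gate and each gated subset.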

Additional observations from a re-analysis of the deposited data

Results flagged for a closer look

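The difference between het and WT depended on tissue for 2 genes, by a test of the interaction itself. Trav13-2, a receptor alpha variable gene, measured 0.889, 1.22 and 0.316 CPM in epithelial het and 4.12, 17.9 and 7.37 CPM in epithelial WT T cells, whereas colon T cells had 30.2, 13.8 and 15.1 CPM in het and 18.9, 7.54 and 7.80 CPM in WT. The epithelial log2 difference minus that of the colon was -4.28 (edgeR adjusted p 0.00564 for this contrast and 0.0186 for the joint test over 3 tissues). Lamina propria T cells had 1.54, 4.18 and 0 CPM in het and 0 CPM in all 3 WT sums, and the contrast of epithelium and lamina propria did not pass (edgeR adjusted p 0.511). Variable genes follow single clones, and clone counts were not used here.

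Plac8 measured 189, 140 and 240 CPM in epithelial het and 237, 234 and 327 CPM in epithelial WT T cells, and 286, 375 and 308 CPM in colon het and 243, 216 and 238 CPM in colon WT. The epithelial log2 difference minus that of the colon was -0.99 (edgeR adjusted p 0.00938 for this contrast and 0.0405 for the joint test), and minus that of the lamina propria -0.62 (edgeR adjusted p 0.471). Neither gene passed the joint test without the capture block, with the stricter hashtag assignment or without epithelial capture 2. Captures of the other tissues were not left out in turn.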

How the results depend on the processing

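All 70 calls kept their direction in 11 alternative fits of all gated T cells. RLE factors gave 72 calls, DESeq2 85, the stricter hashtag assignment 86 and the stricter Cd3e gate 87. Without the capture block, as a paired design without its pairing, 22 genes were called (7 higher, 15 lower, 8 in the H2 window). With het and WT sums only there were 43 (15 higher), without large cells 125 (66 higher, 59 lower) and with no filter on low counts 506 (295 higher, 211 lower, 26 in the H2 window). Leaving out 1 capture gave 18 to 94 calls (6 to 49 higher, 11 to 45 lower, 4 to 12 in the H2 window). CD8 alpha-beta gated cells gave 24 (8 higher, 16 lower) and CD4 gated cells 227 (64 higher, 163 lower, 7 in the H2 window). The cause was not tested.

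The count of tissue-dependent genes was 0 without the block (661 at an unadjusted p under 0.05 by edgeR). It was 0 under the stricter hashtag assignment (700 at an unadjusted p under 0.05 by edgeR). With no filter it was 206, and without 1 epithelial capture 0 to 3, all captures of the other tissues being kept. Within subsets, an alternative added after the data were seen, dropping the block gave 9 CD8 alpha-beta and 8 gamma-delta calls; leaving out 1 capture gave 5 to 24, 18 to 60 and, for CD4 gated cells, 20 to 367, and the stricter hashtag assignment 147 for CD4. The CD8 alpha-beta share difference ranged from -9.81 to 1.38 points, the CD4 one from 6.95 to 20.5 and the gamma-delta one from -16.1 to -6.26.

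In CD4 gated cells the log2 difference had the opposite sign for Tspan9 (0.70), Cdh1 (0.0486), Plac8 (0.14), Gm19585 (-0.31), Ly6a (-0.70), Tcrg-V1 (0.32), Tcrg-C4 (0.97), Cd8a (1.24) and Pecam1 (-1.78), and in CD8 alpha-beta gated cells for Pacsin1 (0.0274), Ighm (0.52) and Tcrg-V1 (0.0113); the cause was not tested. Small WT sums in captures 1 and 2 limit the precision of the subset values.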

Other observations

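Within WT, cells with and without a Gm10260 molecule were compared as a description, chosen after the values were seen and with no test, since the 2 WT mice of a repeat are not marked. A cell without a molecule may still carry the transcript. In capture 3, where 686 WT cells had a molecule and 807 had none (medians of 4674 and 4201 molecules a cell), BC023719 measured 21.0 unscaled CPM in the cells with it and 1.41 in those without, against 0.317 in all het cells. H2-Q2 (40.6 with, 15.0 without, 6.65 in het), H2-Q10 (50.7, 12.4 and 14.6), Hspa1b (100.8, 12.1 and 9.51) and H2-D1 (2878, 2011 and 2069) followed the same order of with and without. H2-Q6 was lower in cells with the transcript (224 with, 303 without, 440 in het).

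Mtus1 (36.2 with, 34.4 without, 4.75 in het), Gm38414 (23.1, 23.4 and 0.951) and 4833420G17Rik (61.3, 60.9 and 99.8) did not separate the WT cells of capture 3 in this way. In captures 1 and 2 BC023719 was again higher in cells with Gm10260 (21.9 against 3.52, and 23.02 against 7.37 unscaled CPM), as were H2-Q2 (50.02 against 33.5, and 64.6 against 51.6) and H2-D1 (3035 against 2632, and 3469 against 2767). Hspa1b was lower in both (22.8 against 40.5, and 40.2 against 66.3). H2-Q10 was nearly equal in capture 1 (27.2 against 24.7) and lower in capture 2 (33.9 against 70.01), and H2-Q6 was lower in capture 1 (220.3 against 389) and higher in capture 2 (225 against 199). The 94 WT cells of capture 2 without the transcript had a median of 2620 molecules, against 5681 in the 375 with it. In that capture 20 WT cells had het as top hashtag, 5 of them with a Gm10260 molecule.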
